A study of Mus musculus with 12 samples.

Results

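The receptors and partners by which the proximal tubule takes up filtered protein were followed across 4 groups of mouse kidney. The 7 genes were chosen by symbol: Lrp2 (megalin), Cubn (cubilin), Amn (amnionless), Folr1 (folate receptor 1), Dab2 (disabled 2), Lrpap1 (the receptor-associated protein RAP) and Clcn5 (the chloride/proton exchanger ClC-5). All 7 were found in the deposited table of 18803 genes, and all 7 were expressed enough to test. RNA was sequenced from whole frozen kidney of male mice 8 weeks old on a C57BL/6J background. PTCKO is the conditional knockout of Wwp2 in the proximal tubule. WT is the WWP2fl/fl mouse, so the controls carry floxed alleles too. The groups are PTCKO UIR, PTCKO Sham, WT UIR and WT Sham, with 3 libraries each. The series asks how Wwp2, a ubiquitin ligase, acts in the passage from acute kidney injury to chronic disease. UIR is written as in the labels. The sources used here give neither the time from UIR to collection nor the Cre driver. Libraries are numbered within a group with no mark of separate animals, and p-values measure their spread alone.

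Megalin and cubilin are large receptors on the brush border that bind albumin, vitamin carriers and many other filtered ligands and carry them into the cell by clathrin-mediated endocytosis. Cubilin has no membrane anchor of its own and reaches the surface with amnionless. Folate receptor 1 is a lipid-anchored receptor that recovers filtered folate. Dab2 is the adaptor that couples megalin to the clathrin coat, RAP is the chaperone that keeps new megalin free of ligand in the endoplasmic reticulum, and ClC-5 supports the acidification of endosomes. Mutations of human LRP2, CUBN, AMN and CLCN5 are known causes of protein loss in urine, as in Dent disease for CLCN5.

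On GRCm38.p6 the genes lie on 6 chromosomes. Lrp2 (Entrez 14725) spans chr2:69424335-69586029 and Cubn (Entrez 65969) spans chr2:13276338-13491876. Amn (Entrez 93835) spans chr12:111271096-111276426, Folr1 (Entrez 14275) chr7:101858331-101870788 and Dab2 (Entrez 13132) chr15:6299788-6440715. Lrpap1 (Entrez 16976) spans chr5:35091490-35105699 and Clcn5 (Entrez 12728) chrX:7153810-7319358. Other annotated genes overlap Cubn, Amn, Dab2, Folr1 and Clcn5 (long noncoding RNAs, pseudogenes and, in Clcn5, 5 microRNAs). The sources used here do not say whether strand was used in counting, so reads of such overlapping genes cannot be told apart. Dab2 had a count that was not whole in 7 of 12 libraries and Lrp2 in 1, which marks reads shared between similar transcripts by estimate.

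RefSeq promoter windows (GRCm38.p6) matched 6 of the 7 genes, all but Folr1, in 8 windows, and the 250 bases before the start are shown for both large receptors and for the partner of each. Lrp2 and Cubn are shown because their profiles were the closest pair, and Amn and Lrpap1 because their transcripts moved less than those of their receptors. Capitals mark matches to 4 motifs. Both strands were read. The GC box was searched as GGGCGG, which 32.7% of 32851 mouse promoter windows of this length held. The TATA box was searched as TATAAA and was held by 12.4% of windows. The E-box CACGTG was in 6.02% of them. The HNF4 site was searched as CAAAGTCCA and was in 0.384%.
Lrp2, chr2:69586030-69586279, minus strand: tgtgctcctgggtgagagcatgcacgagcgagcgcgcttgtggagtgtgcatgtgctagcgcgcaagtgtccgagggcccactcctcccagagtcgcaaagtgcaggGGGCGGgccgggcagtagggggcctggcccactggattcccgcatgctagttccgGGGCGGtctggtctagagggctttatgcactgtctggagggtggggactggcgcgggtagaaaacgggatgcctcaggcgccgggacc
Cubn, chr2:13491877-13492126, minus strand: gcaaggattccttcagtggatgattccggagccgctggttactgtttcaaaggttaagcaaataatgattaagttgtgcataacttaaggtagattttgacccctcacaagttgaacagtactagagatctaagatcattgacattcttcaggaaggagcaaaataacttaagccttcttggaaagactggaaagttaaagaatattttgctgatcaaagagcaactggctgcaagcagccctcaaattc
Amn, chr12:111270846-111271095, plus strand: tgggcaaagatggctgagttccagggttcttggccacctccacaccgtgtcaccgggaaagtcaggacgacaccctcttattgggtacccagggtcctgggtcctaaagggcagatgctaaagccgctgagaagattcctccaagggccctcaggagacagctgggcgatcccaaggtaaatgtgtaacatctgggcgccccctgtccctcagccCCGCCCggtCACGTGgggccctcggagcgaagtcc
Lrpap1, chr5:35105700-35105949, minus strand: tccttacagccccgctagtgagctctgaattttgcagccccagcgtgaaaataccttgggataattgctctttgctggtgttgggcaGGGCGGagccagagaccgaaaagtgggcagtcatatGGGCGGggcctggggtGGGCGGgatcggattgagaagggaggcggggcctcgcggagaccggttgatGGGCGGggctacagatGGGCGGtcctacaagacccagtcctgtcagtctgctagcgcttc
The Lrp2 window held 2 GC boxes and the Lrpap1 window held 5. The Amn window held 1 GC box on the reverse strand and 1 E-box, and the Cubn window held none of the 4 motifs. No match overlapped another. The GC content was 39.6% in the Cubn window, 66.4% in Lrp2, 61.2% in Amn and 60.8% in Lrpap1, beside a median of 52.4% over all windows. Lrp2 and Cubn thus had unlike windows. A match is a run of letters and was not tested as a binding site.

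The libraries summed to 15495163 to 19610217 expected counts in PTCKO UIR and 15855889 to 16013920 in PTCKO Sham. WT UIR libraries summed to 16779444 to 19645743 and WT Sham libraries to 16411402 to 16953930. A gene of the set had between 327 and 35139 counts in a library. Replicates correlated at 0.992 to 0.996 across genes, on log2 values. Wwp2, the targeted gene, did not fall in libraries labelled PTCKO. It averaged 20.7 ± 1.51 FPKM in PTCKO UIR, 16.4 ± 1.04 in PTCKO Sham, against 18.2 ± 0.81 in WT UIR and 16.0 ± 1.00 in WT Sham (SD, n = 3). PTCKO minus WT after UIR was 0.25 (SE 0.0728, edgeR adjusted p = 0.037). That call was lost under 13 of 22 alternative settings (adjusted p over all of them 0.0102 to 0.297), among them without PTCKO UIR 1, PTCKO UIR 3, PTCKO Sham 1, WT UIR 1, WT UIR 3 or WT Sham 1. Values over the whole gene in whole kidney may miss a deletion limited to 1 exon or 1 cell type, which was not tested. Directions between genotypes below rest on the labels.

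All 7 genes were lower after UIR than after sham in both genotypes with TMM scaling. Without scaling Clcn5 was called in neither genotype, at -0.14 in PTCKO and 0.07 in WT. Lrp2, Cubn, Amn and Folr1, 4 of the 7, were higher in PTCKO than in WT after UIR. Calls needed an adjusted p under 0.05 in edgeR's quasi-likelihood test with Benjamini-Hochberg adjustment over 15322 genes. Of all genes tested, 73.8% were called after UIR in PTCKO (39.0% higher, 34.8% lower) and 78.6% in WT (42.1% higher, 36.4% lower). The median log2 fold change of the 7 genes was -1.80 in PTCKO and -3.25 in WT, beside 0.06 and 0.10 over all genes. After UIR, 4 of the 7 were called higher in PTCKO than in WT and 0 lower, where 13.8% of all genes were called (9.3% higher, 4.5% lower). Their median there was 1.40, against 0.005 over all genes. Levels below are FPKM, which is per length and per library total. Fold changes are log2 values from edgeR with TMM scaling, which FPKM does not carry. In bulk kidney, fewer proximal tubule cells and less RNA per cell cannot be told apart.

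**Figure D1:**
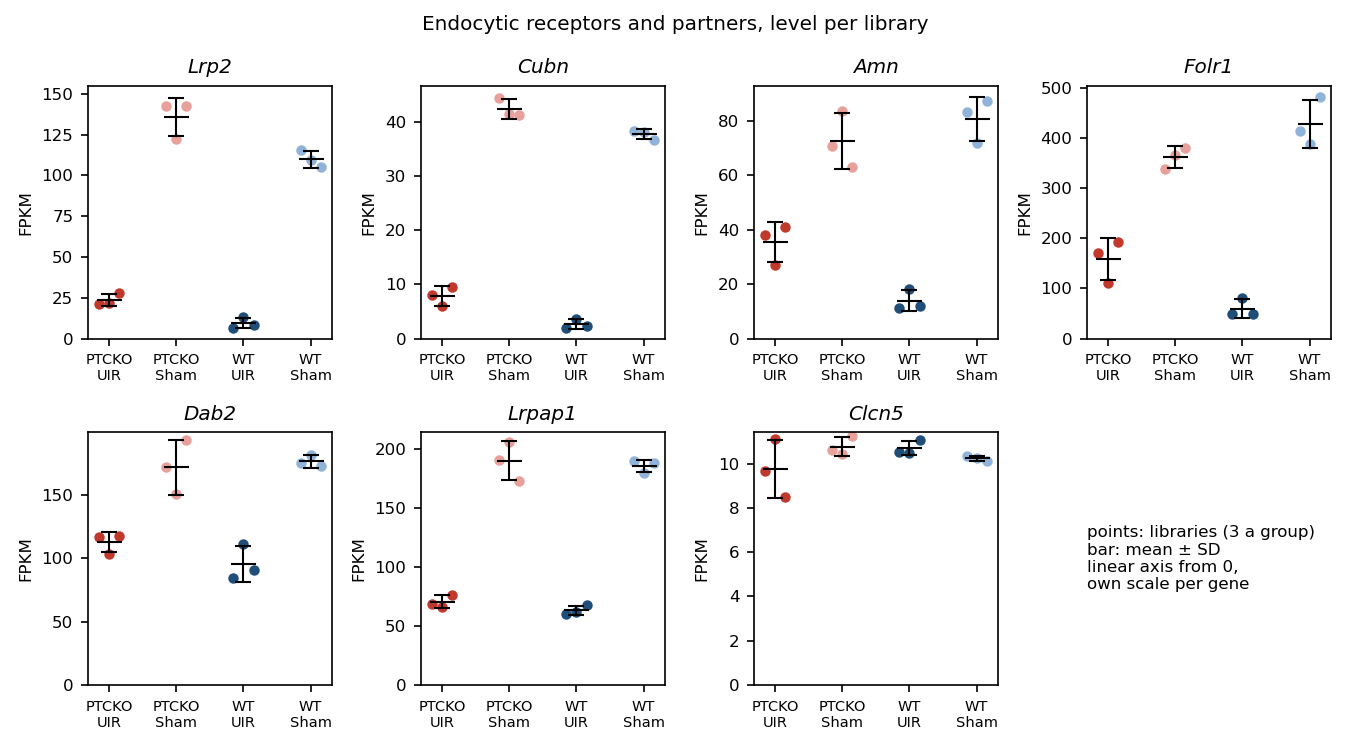
FPKM of each gene in every library on a linear axis from 0, with 3 points per group and the mean ± SD as bars. For Lrp2, Cubn, Amn and Folr1 all PTCKO UIR points lie above all WT UIR points, and both UIR groups lie below both sham groups. For Clcn5 all groups lie between 8.49 and 11.3 FPKM.

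Megalin lost most of its transcript after UIR and lost less of it in PTCKO. Lrp2 had 21.3, 21.9 and 27.9 FPKM in PTCKO UIR and 143, 122 and 143 FPKM in PTCKO Sham. In WT it had 6.73, 13.0 and 8.56 FPKM after UIR and 115, 109 and 105 FPKM after sham. In FPKM the 4 groups did not overlap, and the lowest PTCKO UIR library stood above the highest WT UIR library. On the TMM scale the sham groups overlapped, and PTCKO minus WT after sham was 0.18, which was not called. The UIR effect was a log2 fold change of -3.03 in PTCKO (SE 0.218, edgeR adjusted p = 3.32e-08) and -4.25 in WT (SE 0.231, edgeR adjusted p = 1.51e-09). On the TMM scale 12.2% of the sham level was left in PTCKO and 5.25% in WT. PTCKO exceeded WT after UIR by 1.40 (SE 0.206, edgeR adjusted p = 0.00133). The UIR effect differed between genotypes by 1.22 (interaction, SE 0.287, edgeR adjusted p = 0.0124).

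Cubilin showed the same order of groups as megalin. Cubn had 8.09, 5.93 and 9.52 FPKM in PTCKO UIR and 44.5, 41.5 and 41.3 FPKM in PTCKO Sham. WT kidneys had 1.91, 3.63 and 2.35 FPKM after UIR and 38.35, 38.2 and 36.7 FPKM after sham. Again no 2 groups overlapped in FPKM, and UIR libraries of both genotypes were the low ones. On the TMM scale the sham groups overlapped, and PTCKO minus WT after sham was 0.04, which was not called. UIR changed Cubn by -2.94 in PTCKO (SE 0.221, edgeR adjusted p = 5.03e-08) and by -4.55 in WT (SE 0.240, edgeR adjusted p = 1.17e-09). On the TMM scale 13.0% of the sham level was left in PTCKO and 4.26% in WT. After UIR, PTCKO exceeded WT by 1.65 (SE 0.216, edgeR adjusted p = 0.000776). The interaction was 1.61 (SE 0.296, edgeR adjusted p = 0.00492).

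Amnionless, the partner of cubilin, lost less than cubilin did. Amn had 38.2, 27.1 and 41.1 FPKM in PTCKO UIR and 70.9, 83.7 and 63.2 FPKM in PTCKO Sham. In WT it had 11.3, 18.2 and 12.1 FPKM after UIR and 83.1, 71.8 and 87.4 FPKM after sham. The sham groups overlapped each other, and each UIR group stood apart from them and from the other UIR group. The UIR effect was -1.54 in PTCKO (SE 0.197, edgeR adjusted p = 9.49e-06) and -3.25 in WT (SE 0.212, edgeR adjusted p = 8.43e-09). After UIR 34.3% of the sham level was left in PTCKO and 10.5% in WT, on the TMM scale. PTCKO exceeded WT after UIR by 1.43 (SE 0.203, edgeR adjusted p = 0.00115), with an interaction of 1.71 (SE 0.279, edgeR adjusted p = 0.00303).

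Folr1 was the most abundant of the 7 after sham. It had 171, 111 and 193 FPKM in PTCKO UIR and 339, 366 and 381 FPKM in PTCKO Sham. WT kidneys had 48.0, 81.6 and 49.0 FPKM after UIR and 414, 389 and 482 FPKM after sham. All PTCKO UIR libraries lay above all WT UIR libraries, and all PTCKO Sham libraries lay below all WT Sham libraries, although the sham difference did not pass the test. UIR changed Folr1 by -1.80 in PTCKO (SE 0.219, edgeR adjusted p = 6.06e-06) and by -3.57 in WT (SE 0.236, edgeR adjusted p = 9.73e-09). PTCKO exceeded WT after UIR by 1.51 (SE 0.219, edgeR adjusted p = 0.0013). Its interaction was 1.77 (SE 0.305, edgeR adjusted p = 0.00371).

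The libraries within UIR groups were not alike. WT UIR 2 was the highest WT UIR library for Lrp2, Cubn, Amn, Folr1 and Dab2. PTCKO UIR 2 was the lowest PTCKO UIR library for Cubn, Amn, Folr1, Dab2 and Lrpap1, and on the TMM scale for Lrp2. For Clcn5 PTCKO UIR 2 was the highest. Leaving out any 1 library kept the 4 calls after UIR. Over all 22 alternative settings, the difference after UIR ranged over 1.22 to 1.71 for Lrp2, 1.29 to 1.96 for Cubn, 1.27 to 1.69 for Amn and 1.34 to 1.81 for Folr1. The highest edgeR, DESeq2 or limma adjusted p among these was 0.019.

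The cytoplasmic adaptor, the chaperone and the exchanger were also lower after UIR with TMM scaling (without it Clcn5 was called in neither genotype), and no difference between genotypes passed the threshold. Dab2 had 117, 103 and 118 FPKM in PTCKO UIR and 172, 150.3 and 194 FPKM in PTCKO Sham. In WT it had 84.1, 111 and 90.95 FPKM after UIR and 175, 182 and 172 FPKM after sham. The UIR groups overlapped each other, and both lay below the sham groups. The UIR effect was -1.10 in PTCKO (SE 0.125, edgeR adjusted p = 3.13e-06) and -1.55 in WT (SE 0.127, edgeR adjusted p = 8.48e-08). PTCKO minus WT after UIR was 0.29 (SE 0.124, edgeR adjusted p = 0.145) and the interaction was 0.45 (SE 0.175, edgeR adjusted p = 0.0835). That interaction passed the threshold with DESeq2 (0.48, adjusted p = 0.0304), without WT UIR 2 (0.56, edgeR adjusted p = 0.0428) and without PTCKO UIR 2 (0.53, edgeR adjusted p = 0.0426). Its adjusted p ran up to 0.513 over the alternatives. Macrophages also express Dab2. The 13 macrophage markers summed to 6498 to 8779 TPM in PTCKO UIR, 142.0 to 183 TPM in PTCKO Sham, 9863 to 14442 TPM in WT UIR and 142 to 176 TPM in WT Sham, with none at 0. After UIR, 4 of the 13 were called lower in PTCKO than in WT and 9 were not called, beside 4.5% of all genes called lower. The part of macrophages in the level of Dab2 was not tested.

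Lrpap1 had 68.4, 66.3 and 76.7 FPKM in PTCKO UIR and 191, 206 and 173 FPKM in PTCKO Sham. In WT it had 60.6, 61.5 and 67.4 FPKM after UIR and 189.7, 179.5 and 188 FPKM after sham. PTCKO and WT overlapped within each surgery, while UIR and sham did not overlap. UIR changed Lrpap1 by -1.94 in PTCKO (SE 0.110, edgeR adjusted p = 4.08e-09) and by -2.27 in WT (SE 0.112, edgeR adjusted p = 6.92e-10). PTCKO minus WT after UIR was 0.23 (SE 0.107, edgeR adjusted p = 0.184), and the interaction was 0.32 (SE 0.151, edgeR adjusted p = 0.140).

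Clcn5 had 9.69, 11.1 and 8.49 FPKM in PTCKO UIR and 10.6, 10.45 and 11.3 FPKM in PTCKO Sham. In WT it had 10.5, 10.5 and 11.1 FPKM after UIR and 10.3, 10.3 and 10.1 FPKM after sham. The FPKM of PTCKO UIR and PTCKO Sham overlapped, and all WT UIR libraries lay above all WT Sham libraries. With TMM scaling the UIR effect was -0.66 in PTCKO (SE 0.0814, edgeR adjusted p = 7.11e-06) and -0.64 in WT (SE 0.0813, edgeR adjusted p = 6.77e-06). Without scaling it was -0.14 in PTCKO and turned to 0.07 in WT, and neither passed. Scaling moved the median of all genes. Without it that median was 0.57 in PTCKO and 0.82 in WT, and Clcn5 stood 0.71 and 0.75 below it. With TMM scaling Clcn5 stood 0.72 below the median of all genes in PTCKO and 0.75 below it in WT. The genotypes differed by -0.07 after UIR (SE 0.0810, edgeR adjusted p = 0.584), with an interaction of -0.01 (SE 0.115, edgeR adjusted p = 0.955). Intercalated cells also express Clcn5. Their 8 markers summed to 192 to 308 TPM in PTCKO UIR, 217 to 243 TPM in PTCKO Sham, 325 to 383 TPM in WT UIR and 195 to 228 TPM in WT Sham, with none at 0. By marker, with TMM scaling, 2 were called higher and 6 lower after UIR in WT, and 0 higher and 6 lower in PTCKO. Over all genes the shares were 42.1% higher and 36.4% lower in WT, and 39.0% and 34.8% in PTCKO. The part of intercalated cells in the level of Clcn5 was not tested.

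**Figure D2:**
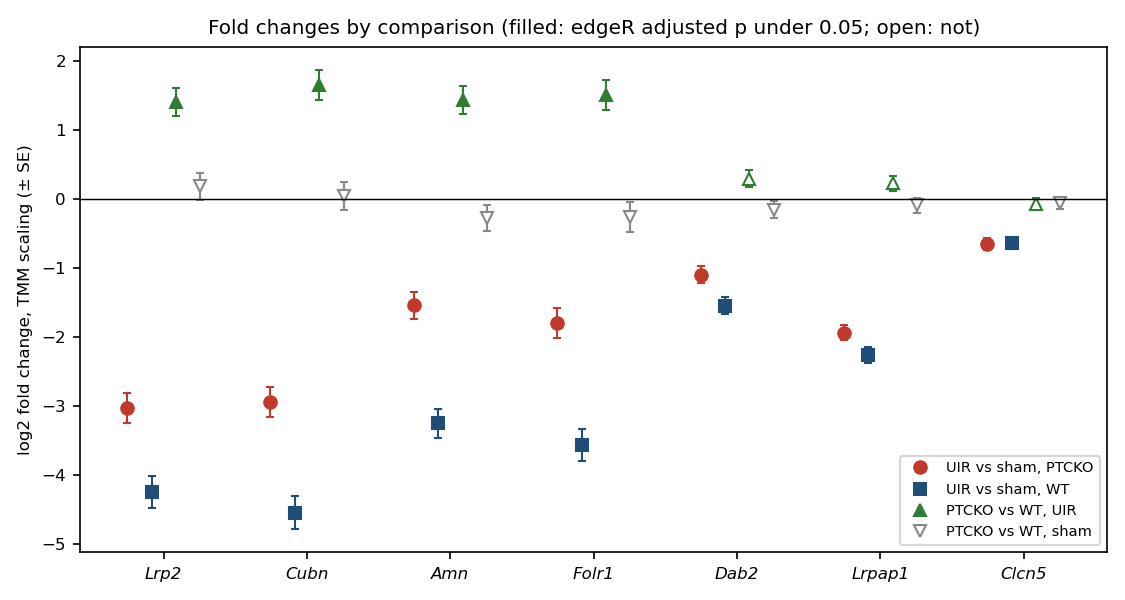
log2 fold change with its SE for each gene in 4 comparisons, with TMM scaling, filled where edgeR's adjusted p was under 0.05. All UIR against sham values lie below 0. Without scaling the Clcn5 value is -0.14 in PTCKO and turns to 0.07 in WT, and neither is called. The filled triangles above 0 are Lrp2, Cubn, Amn and Folr1 in PTCKO against WT after UIR.

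After sham, 0 of the 7 genes differed between PTCKO and WT, where 10.7% of all genes were called (5.23% higher, 5.5% lower). None reached an unadjusted edgeR p under 0.05 (0 genes), where 4576 of all 15322 genes did. None was called by DESeq2 or limma. The log2 fold changes ran between -0.28 for Amn and 0.18 for Lrp2, with edgeR adjusted p of 0.349 to 0.916. In the test of the interaction 4 genes were called higher and 0 lower, where 21.5% of all genes were called (14.4% higher, 7.08% lower). The comparisons after UIR and the interaction share the UIR libraries.

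The order of the levels changed with UIR. In WT Sham, Folr1 stood at 428 ± 48.3 FPKM, Lrpap1 at 185.7 ± 5.40, Dab2 at 176 ± 4.89, Lrp2 at 109.8 ± 5.21, Amn at 80.8 ± 8.06, Cubn at 37.7 ± 0.932 and Clcn5 at 10.2 ± 0.11 (SD, n = 3). Lrpap1 and Dab2 overlapped in that order and no other neighbours did. In PTCKO UIR the order was Folr1 at 158 ± 42.4 FPKM, Dab2 at 113 ± 8.02, Lrpap1 at 70.5 ± 5.46, Amn at 35.5 ± 7.41, Lrp2 at 23.7 ± 3.66, Clcn5 at 9.77 ± 1.32 and Cubn at 7.85 ± 1.81 (SD, n = 3). There Folr1 overlapped Dab2, Amn overlapped Lrp2, and Clcn5 overlapped Cubn. In WT UIR, Dab2 led at 95.4 ± 14.1 FPKM, followed by Lrpap1 at 63.2 ± 3.70, Folr1 at 59.5 ± 19.1, Amn at 13.9 ± 3.78, Clcn5 at 10.7 ± 0.32, Lrp2 at 9.43 ± 3.22 and Cubn at 2.63 ± 0.894 (SD, n = 3). Lrpap1 overlapped Folr1 there, and Lrp2 overlapped both Amn and Clcn5. Megalin stood above amnionless in both sham groups and below it on average in both UIR groups.

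Ratios within a library do not depend on scaling between libraries. The log2 ratios of 4 pairs were tested with exact two-sided permutation tests over 400 permutations within strata, whose smallest p is 0.005, and adjusted over 22 tests. Lrp2 to Cubn was 2.62, 3.64 and 2.91 in PTCKO UIR and 3.20, 2.94 and 3.45 in PTCKO Sham. In WT it was 3.40, 3.51 and 3.53 after UIR and 3.00, 2.85 and 2.86 after sham. The PTCKO groups overlapped, and WT UIR stood above WT Sham. UIR minus sham was 0.09 on the log2 scale (exact permutation p = 0.32, adjusted 0.391) and PTCKO minus WT was -0.03 (exact permutation p = 0.725, adjusted 0.839). These averages join strata of opposite sign: UIR minus sham was -0.07 in PTCKO and 0.26 in WT, and PTCKO minus WT was -0.20 after UIR and 0.14 after sham.

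Amn to Cubn was 4.68, 4.50 and 4.28 in PTCKO UIR and 1.59, 2.01 and 1.53 in PTCKO Sham. In WT it was 5.68, 4.91 and 4.98 after UIR and 2.16, 1.88 and 2.38 after sham. The UIR groups lay above the sham groups, and the WT UIR group lay above the PTCKO UIR group. The difference of UIR minus sham was 1.34 (exact permutation p = 0.005, adjusted 0.011) and that of PTCKO minus WT was -0.27 (exact permutation p = 0.02, adjusted 0.0338). The genotype difference did not pass with a pseudocount of 1 (-0.16, exact permutation, adjusted p = 0.196) or without PTCKO UIR 3 (-0.25), PTCKO Sham 1 (-0.24), PTCKO Sham 3 (-0.23), WT UIR 1 (-0.23), WT Sham 1 (-0.26) or WT Sham 3 (-0.23).

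Lrpap1 to Lrp2, the chaperone to its receptor, was 3.20, 3.02 and 2.74 in PTCKO UIR and 1.34, 1.69 and 1.21 in PTCKO Sham. In WT it was 8.88, 4.71 and 7.80 after UIR and 1.64, 1.64 and 1.79 after sham. WT UIR libraries were highest, and PTCKO UIR lay between them and the sham groups. UIR minus sham was 1.56 (exact permutation p = 0.005, adjusted 0.011), made up of 1.09 in PTCKO and 2.03 in WT. PTCKO minus WT was -0.74 (exact permutation p = 0.015, adjusted 0.0275), made up of -1.21 after UIR and -0.27 after sham, and it missed the threshold without PTCKO UIR 1 (-0.77), PTCKO UIR 2 (-0.75) or PTCKO UIR 3 (-0.71). Dab2 to Lrp2, the adaptor to its receptor, averaged 4.77 in PTCKO UIR, 1.26 in PTCKO Sham, against 10.3 in WT UIR and 1.61 in WT Sham as geometric means. UIR minus sham was 2.30 (exact permutation p = 0.005, adjusted 0.011) and PTCKO minus WT was -0.73 (exact permutation p = 0.005, adjusted 0.011). In bulk kidney these ratios join the transcripts of all cells, and the part of other cells in Lrpap1 or Dab2 was not tested.

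**Figure D3:**
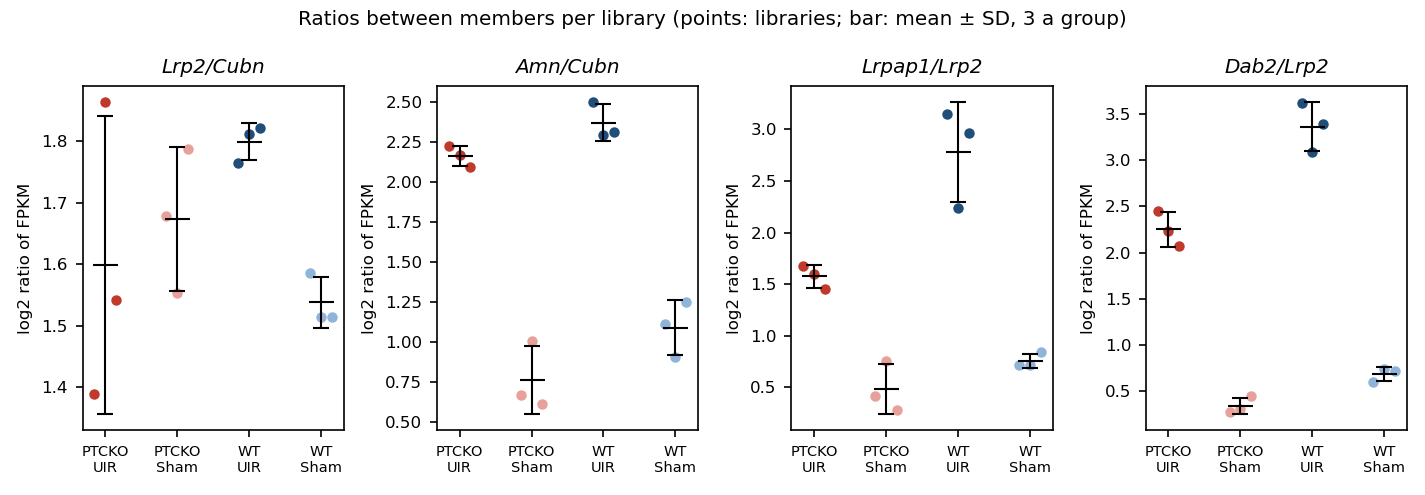
log2 ratio of FPKM within each library for 4 pairs of genes, 3 points per group with the mean ± SD, each panel on its own axis. Lrp2 to Cubn stays between 1.39 and 1.86 in every library, whereas Amn to Cubn, Lrpap1 to Lrp2 and Dab2 to Lrp2 lie higher in both UIR groups than in both sham groups.

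Each gene was also set against 20 proximal tubule markers in the same library, transporters and metabolic enzymes such as Slc34a1, Slc22a6 and Miox. These markers summed to 5066 to 7154 TPM in PTCKO UIR, 24509 to 29141 TPM in PTCKO Sham, 1731 to 3455 TPM in WT UIR and 26894 to 29472 TPM in WT Sham, with none at 0. The labelled tissue thus held its proximal tubule transcripts in every group. All 20 markers were lower after UIR in both genotypes, and 18 were called higher in PTCKO than in WT after UIR (median 1.37). Over all genes, 34.8% were called lower after UIR in PTCKO, 36.4% in WT, and 9.3% higher in PTCKO than in WT after UIR. Relative to the mean log2 level of the markers, Lrp2 differed by 0.09 for UIR minus sham (exact permutation p = 0.095, adjusted 0.129) and Cubn by -0.0004 (exact permutation p = 0.985). Neither difference passed the test, and the Cubn value changed sign under some settings. By genotype, that difference was 0.0078 in PTCKO and 0.18 in WT for Lrp2, and 0.083 in PTCKO and -0.084 in WT for Cubn. In WT the UIR and sham libraries did not overlap for either gene, with Lrp2 higher and Cubn lower after UIR relative to the markers.

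The other genes lay higher relative to the markers after UIR than after sham. In bulk kidney their levels join all cells, and the part of cells outside the proximal tubule was not tested. Folr1 lay 1.09 higher, Amn 1.34, Lrpap1 1.65, Dab2 2.39 and Clcn5 3.10 on the log2 scale (each exact permutation p = 0.005, adjusted 0.011, the smallest p the test allows). For PTCKO minus WT, relative to the markers, Lrp2 differed by 0.21 (exact permutation p = 0.01, adjusted 0.02) and Cubn by 0.24 (exact permutation p = 0.005, adjusted 0.011). Those differences were 0.13 after UIR and 0.30 after sham for Lrp2, and 0.33 after UIR and 0.16 after sham for Cubn. The Lrp2 value missed the threshold with 6 markers (0.30, exact permutation, adjusted p = 0.0592) and the Cubn value missed it with a pseudocount of 1 (0.12, exact permutation, adjusted p = 0.11). Amn and Folr1 differed from the markers by -0.02 and -0.03 between genotypes (exact permutation p = 0.85 and 0.8). Dab2 differed by -0.52 (exact permutation p = 0.035, adjusted 0.055), Lrpap1 by -0.53 (exact permutation p = 0.065, adjusted 0.0953) and Clcn5 by -0.65 (exact permutation p = 0.1, adjusted 0.129). These were made up of -0.99 after UIR and -0.05 after sham for Dab2, -1.08 after UIR and 0.02 after sham for Lrpap1, and -1.37 after UIR and 0.07 after sham for Clcn5. The Dab2 value passed the threshold without WT Sham 1 (-0.53, exact permutation, adjusted p = 0.0423) or PTCKO Sham 3 (-0.56, exact permutation, adjusted p = 0.0275), and the Lrpap1 value without PTCKO Sham 2 (-0.57, exact permutation, adjusted p = 0.0314).

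**Figure D4:**
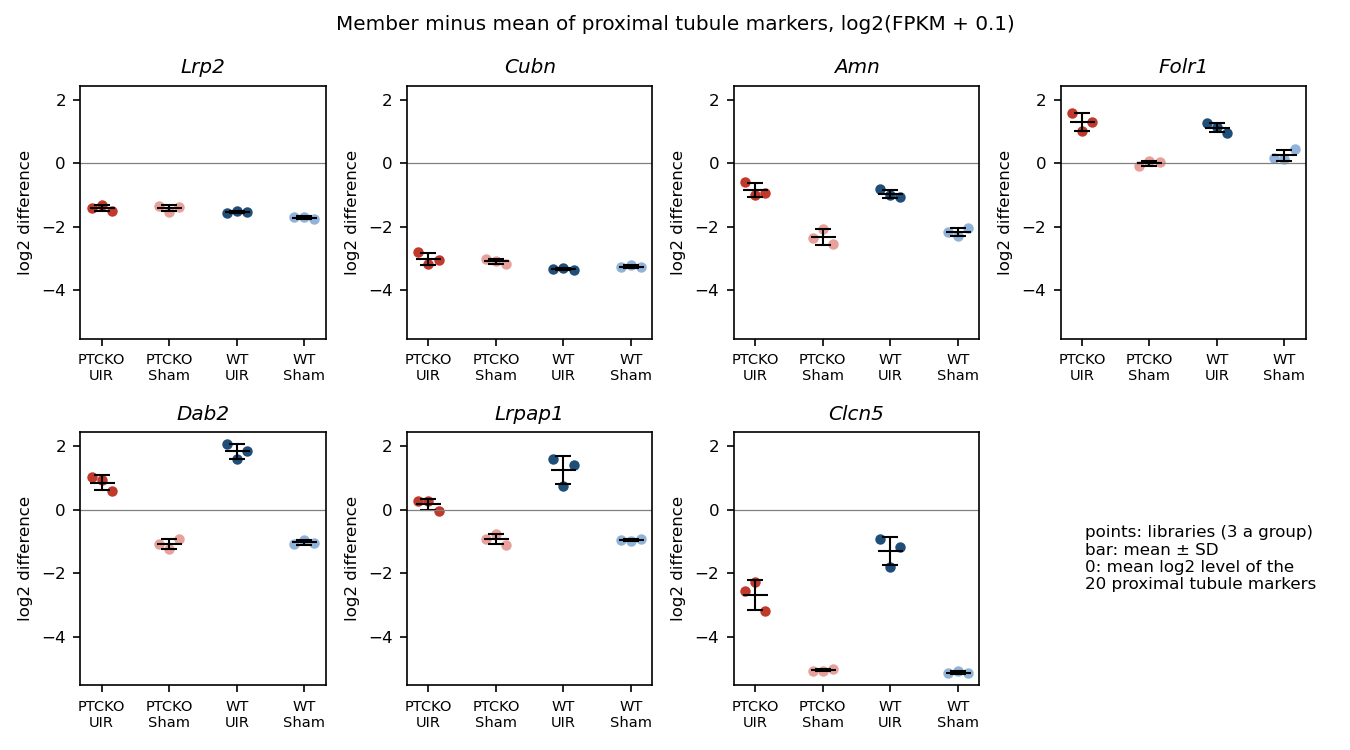
log2(FPKM + 0.1) of each gene minus the mean of 20 proximal tubule markers in the same library, 3 points per group with the mean ± SD, on 1 common axis. Lrp2 and Cubn vary less across the groups than the other genes, which lie higher in both UIR groups than in both sham groups, with Clcn5 at -2.68 in PTCKO UIR, -5.06 in PTCKO Sham, against -1.30 in WT UIR and -5.12 in WT Sham.

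Over the 12 libraries the profiles nearest to Lrp2 included those of Acsm5 and Acsm2, at root mean square differences of 0.0891 and 0.122 on the log2 scale after centring each gene. Those nearest to Cubn were Hgd (homogentisate dioxygenase), Gys2 (liver-type glycogen synthase) and Ass1 (argininosuccinate synthase), at 0.106, 0.113 and 0.136. Nearest to Amn were B3gat2, Aadac and Bdh2, at 0.114, 0.138 and 0.163. Nearest to Dab2 were Wbp2, Mb21d2 and Rsph3b, at 0.0587, 0.0666 and 0.0888. Between the 7 genes, the closest pair was Lrp2 with Cubn at 0.157, then Amn with Folr1 at 0.199, and the farthest was Cubn with Clcn5 at 1.71. The libraries share their group, which sets most of these profiles.

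Of 20 genes of the clathrin coat and its adaptors, 6 were higher and 9 lower after UIR in PTCKO, and 6 higher and 10 lower in WT, with medians of -0.06 and -0.22. These are 15 and 16 of 20 called, near the 73.8% and 78.6% of all genes. None of the 20 was called between PTCKO and WT after UIR (0 by edgeR, median 0.04), beside 13.8% of all genes called. After sham 3 were higher and 3 lower in PTCKO than in WT, beside 10.7% of all genes called, and in the interaction 5 were higher and 3 lower, beside 21.5%. Inpp5b, an inositol phosphatase, averaged 16.1 ± 1.30 FPKM in PTCKO UIR, 29.6 ± 1.25 in PTCKO Sham, against 15.4 ± 0.525 in WT UIR and 29.2 ± 2.53 in WT Sham (SD, n = 3), and its UIR effect in WT was -1.63 (SE 0.0775, edgeR adjusted p = 5.38e-10). In WT the clathrin light chain Cltb was lower after UIR by a log2 fold change of -1.44, the motor protein Myo6 by -1.21 and the AP-2 subunit Ap2a2 by -1.15. The differences of PTCKO minus WT after UIR were 0.31 for Cltb, 0.26 for Myo6 and 0.21 for Ap2a2 (edgeR adjusted p = 0.0589, 0.0915 and 0.0986). After sham, PTCKO minus WT was -0.48 in Cltb (edgeR adjusted p = 0.0155).

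Among 14 genes of early and recycling endosomes, 1 was higher and 10 lower after UIR in PTCKO, and 1 higher and 11 lower in WT, with medians of -0.61 and -0.48. Beside these, 73.8% of all genes were called in PTCKO (39.0% higher, 34.8% lower) and 78.6% in WT (42.1% higher, 36.4% lower). After UIR, 2 were higher and 1 lower in PTCKO than in WT, beside 13.8% of all genes called (9.3% higher, 4.5% lower). The recycling GTPase Rab4a averaged 20.3 ± 3.90 FPKM in PTCKO UIR, 29.5 ± 2.29 in PTCKO Sham, against 12.9 ± 3.05 in WT UIR and 34.0 ± 1.82 in WT Sham (SD, n = 3). It was higher in PTCKO after UIR by 0.72 (SE 0.171, edgeR adjusted p = 0.01495). Ehd1, which acts in exit from the recycling endosome, was higher by 0.37 (SE 0.108, edgeR adjusted p = 0.0405), and its paralog Ehd3 had a log2 fold change of -0.68 (SE 0.170, edgeR adjusted p = 0.0193). In WT, UIR changed Ehd1 by -1.79, the early endosome GTPase Rab5c by -1.25, Rab4a by -2.10 and the retromer subunit Vps35 by -0.57.

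Of 11 other tested members of the lipoprotein receptor family, to which megalin belongs, 1 was higher and 8 lower after UIR in PTCKO, and 2 higher and 4 lower in WT. Over all genes, 73.8% were called in PTCKO (39.0% higher, 34.8% lower) and 78.6% in WT (42.1% higher, 36.4% lower). Lrp1, a receptor of fibroblasts and macrophages, averaged 16.3 ± 2.56 FPKM in PTCKO UIR, 2.10 ± 0.246 in PTCKO Sham, against 24.4 ± 3.84 in WT UIR and 1.73 ± 0.468 in WT Sham (SD, n = 3). Its UIR effect in WT was 3.11 (SE 0.181, edgeR adjusted p = 2.83e-09), opposite in sign to that of Lrp2. The 9 fibroblast and myofibroblast markers summed to 1233 to 1494 TPM in PTCKO UIR, 117 to 126 TPM in PTCKO Sham, 1845 to 2322 TPM in WT UIR and 86.4 to 124 TPM in WT Sham, with none at 0, and their part in Lrp1 was not tested. After UIR, the difference of PTCKO minus WT was -0.51 in Lrp4 (SE 0.142, edgeR adjusted p = 0.030, against 0.56 after sham, edgeR adjusted p = 0.0329) and -0.51 in Lrp1 (SE 0.163, edgeR adjusted p = 0.0544).

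Of 12 genes that handle the vitamins carried by these receptors, 3 were higher and 8 lower after UIR in each genotype, and 6 were higher and 0 lower in PTCKO than in WT after UIR (median 0.62). The shares of all genes called were 73.8% for UIR in PTCKO, 78.6% for UIR in WT and 13.8% between genotypes after UIR (9.3% higher). Slc19a1, the reduced folate carrier, averaged 19.4 ± 2.09 FPKM in PTCKO UIR, 37.5 ± 1.60 in PTCKO Sham, against 10.3 ± 2.63 in WT UIR and 41.4 ± 4.17 in WT Sham (SD, n = 3). PTCKO exceeded WT after UIR by 0.97 (SE 0.148, edgeR adjusted p = 0.00152). The vitamin D receptor gene Vdr was higher by 0.88 (SE 0.152, edgeR adjusted p = 0.00272), and Cyp27b1, the enzyme that activates vitamin D, by 1.62 (SE 0.318, edgeR adjusted p = 0.00529). Cyp27b1 was also higher in PTCKO after sham, by 1.74 (edgeR adjusted p = 0.0121). Cyp24a1, of the same list, was higher in PTCKO after UIR by 1.68 (SE 0.363, edgeR adjusted p = 0.00902). Its difference after sham, 0.63, was not called (edgeR adjusted p = 0.240). The vitamin B12 carrier gene Tcn2 changed by -3.25 with UIR in WT, and the retinol receptor gene Stra6 rose by 5.19 there, with 56.5 ± 6.64 FPKM in PTCKO UIR, 0.733 ± 0.251 in PTCKO Sham, against 51.2 ± 5.69 in WT UIR and 0.847 ± 0.186 in WT Sham (SD, n = 3).

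All 5 transcription factors of tubule identity in the list were lower after UIR in both genotypes, and 3 were higher in PTCKO than in WT after UIR. Of all genes, 34.8% were lower after UIR in PTCKO and 36.4% in WT, and 9.3% were higher in PTCKO than in WT after UIR. Hnf4a averaged 61.5 ± 8.29 FPKM in PTCKO UIR, 224 ± 26.8 in PTCKO Sham, against 31.98 ± 7.64 in WT UIR and 183 ± 19.2 in WT Sham (SD, n = 3). PTCKO exceeded WT after UIR in Hnf4a by 1.02 (SE 0.169, edgeR adjusted p = 0.00223) and in Ppara by 1.23 (SE 0.167, edgeR adjusted p = 0.000905). With UIR in WT, Ppara changed by -3.99, Hnf4a by -3.23 and Hnf4g by -2.07. No HNF4 site as searched lay in the printed windows, and nothing about the factor follows from that.

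**Figure D5:**
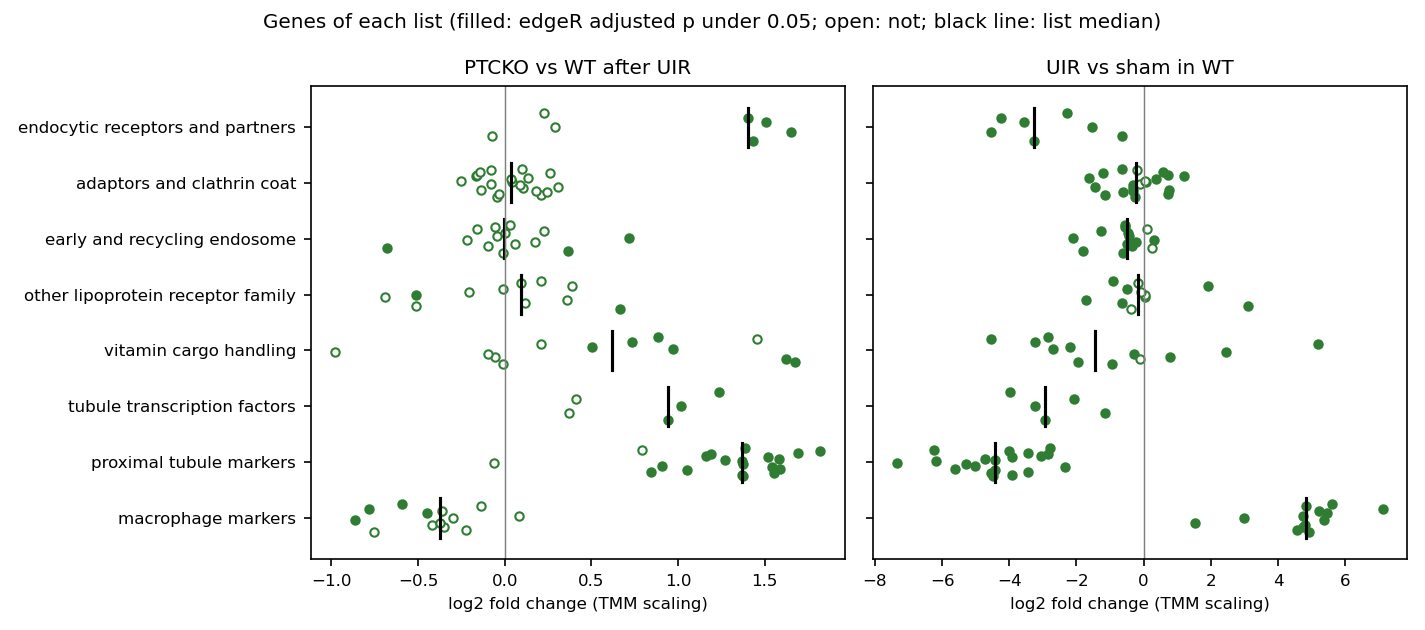
log2 fold change with TMM scaling of every tested gene in 8 lists, PTCKO against WT after UIR on the left and UIR against sham in WT on the right, filled where edgeR's adjusted p was under 0.05, with the list median as a black line. The medians of the endocytic receptors and of the proximal tubule markers lie at 1.40 and 1.37 on the left, while the clathrin coat and endosome lists lie near 0; on the right, Clcn5 is the endocytic value nearest to 0 and turns positive without scaling.

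Markers of other cells also moved with the groups. After UIR, 4 of 13 macrophage markers, 9 of 10 endothelial markers, 3 of 9 fibroblast markers, 3 of 8 intercalated cell markers and 2 of 6 podocyte markers were lower in PTCKO than in WT, and 0 of any of these were higher. In that comparison 13.8% of all genes were called (9.3% higher, 4.5% lower). The endothelial markers summed to 677 to 798 TPM in PTCKO UIR, 410 to 419.6 TPM in PTCKO Sham, 994 to 1065 TPM in WT UIR and 356 to 426 TPM in WT Sham. None of the 6 thick ascending limb markers differed between genotypes after UIR (0 by edgeR). The part of these cells in the levels of the endocytic genes was not tested.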

How the data were processed

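RNA-seq of kidney was analysed in 12 libraries, grouped by title into 4 groups of 3. Bowtie2, RSEM, DESeq2 and GRCm38.p6 are named, without versions, in the submitters' processing notes. The authors deposited 1 table of expected counts, FPKM and TPM for each library. The file headers call the first read counts, and their values that were not whole within 1e-06 led to their being taken as RSEM's estimates. The deposited expected counts summed to different totals, with no normalization stated. FPKM and TPM, as deposited, are per length and library total. All columns used were mapped to a library (0 left without one). Of 18803 genes, 18747 (99.7%) matched GRCm38.p6.

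Expected counts were rounded and tested with edgeR 4.0.16 in R 4.3.3 (glmQLFit and glmQLFTest, filterByExpr, TMM, 1 coefficient per group, 8 residual degrees of freedom, two-sided, Benjamini-Hochberg over 15322 genes). The 5 comparisons were UIR against sham in each genotype, PTCKO against WT in each surgery, and the interaction. Ratios used log2(FPKM + 0.1) and exact stratified permutation tests. Alternatives used DESeq2 1.42.0, limma 3.58.1 on log2 FPKM or TPM, other scalings and filters, a replicate block and each library left out. The scripts were tested on simulated data. Each group has 3 libraries.

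The genes and lists were chosen with earlier results of these data known. Beside the 7 genes, Wwp2 and Cyp24a1, the rule named from each list up to 4 tested genes with the smallest p for UIR in WT and 3 for PTCKO against WT after UIR, and the 3 nearest profiles to Lrp2, Cubn, Amn and Dab2. Of those from the marker lists, only summed levels and counts are given, and a few other genes picked by it are not reported here.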

Additional observations from a re-analysis of the deposited data

Results flagged for a closer look

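For 4 of the 7 genes the UIR effect differed between the genotypes by a test of the difference itself, the interaction in edgeR's quasi-likelihood fit with Benjamini-Hochberg adjustment. The log2 UIR effect of PTCKO minus that of WT was 1.77 for Folr1 (edgeR adjusted p = 0.00371), 1.71 for Amn (edgeR adjusted p = 0.00303), 1.61 for Cubn (edgeR adjusted p = 0.00492) and 1.22 for Lrp2 (edgeR adjusted p = 0.0124). Each UIR effect was negative in both genotypes and smaller in size in PTCKO. Groups of 3 libraries were too small to check for outlying libraries.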

How the results depend on the processing

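The 4 genes called higher in PTCKO after UIR stayed 4 under all 22 alternatives, the 0 called after sham stayed 0, and the interaction called 4 or 5. UIR against sham called 6 or 7 in each genotype. Replicate numbers did not pair the libraries: same-numbered libraries correlated at -0.0893 to 0.0571 over 12 pairs. With the replicate block edgeR called 1983 genes after UIR, 1667 after sham and 3274 in the interaction, and it changed no call of the 7 genes. For the ratios, the block by sign flips left the values as they were but gave adjusted p, exact permutation, of 0.0625 for UIR minus sham in Amn/Cubn (1.34), Lrpap1/Lrp2 (1.56) and Dab2/Lrp2 (2.30) and for PTCKO minus WT in Dab2/Lrp2 (-0.73), and 0.106 for PTCKO minus WT in Amn/Cubn (-0.27) and Lrpap1/Lrp2 (-0.74). Sign flips allow fewer arrangements than the 400 permutations above, so their smallest p is larger than 0.005. Where the adjusted p was 0.0625, the unadjusted p was the smallest that the flips allow. Missing the threshold there does not show a weaker effect.

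Leaving out 1 library moved the count of all genes called from 2115 to between 904 (without PTCKO UIR 3) and 3321 (without PTCKO UIR 2) after UIR, with 1307 without PTCKO UIR 1, 989 without WT UIR 1 and 1230 without WT UIR 3. After sham it moved from 1645 to between 430 (without WT Sham 3) and 2183, with 504, 524 and 653 without PTCKO Sham 1, 2 and 3 and 753 without WT Sham 1, and limma on TPM gave 2597. In the interaction it moved from 3288 to between 1743 (without PTCKO UIR 3, and without WT UIR 1) and 4565, with 2054 without PTCKO UIR 1 and 2186 without WT Sham 3. Without scaling the share of calls that were higher moved from 52.8% to 77.2% for UIR in PTCKO, from 53.6% to 78.7% in WT, from 67.4% to 56.1% after UIR, from 48.8% to 84.4% after sham and from 67.0% to 32.1% in the interaction. The causes were not tested.

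With a pseudocount of 1 the PTCKO minus WT difference of Amn/Cubn was -0.16 (leaving out 1 library, -0.33 to -0.23), and Lrp2/Cubn reversed to -0.085 for UIR and 0.062 for genotype (leaving out 1 library, -0.099 to 0.020). Lrpap1/Lrp2 ranged over -0.88 to -0.65. Clcn5 for UIR in WT reversed to 0.067 without scaling, 0.057 with limma on FPKM (also with no filter), 0.062 with a pseudocount of 0.1 and 0.22 on TPM. After sham, in the same order of settings, Clcn5 reversed to 0.067, 0.067, 0.072 and 0.16, Lrpap1 to 0.034, 0.031, 0.031 and 0.13, and Dab2 to 0.056 on TPM. Leaving out 1 library, Clcn5 after UIR ranged over -0.13 to 0.0031, Cubn after sham over -0.0095 to 0.068 and the Clcn5 interaction over -0.081 to 0.055. The Clcn5 interaction was 0.017 with DESeq2 size factors and 0.016 with DESeq2, and that of Lrpap1 was -0.031 on TPM. Relative to the proximal tubule markers, Cubn for UIR was 0.16 with a pseudocount of 1, 0.0091 with 6 markers and -0.051 to 0.042 leaving out 1 library. For genotype, Amn was 0.068 with 6 markers (-0.088 to 0.034 leaving out 1 library) and Folr1 0.058 (-0.10 to 0.036).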
